A study of Mus musculus with 2 samples.

Results

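Acute-phase proteins other than serum amyloid A were examined in whole omentum after ablation of Postn-expressing cells. The 10 genes were Orm1, Orm2, Orm3, Hp, Hpx, Lcn2, Ptx3, Itih4, Lbp and Lrg1, out of 24346 gene symbols listed, and they were taken by symbol. They were picked because Orm1 was lower while others were higher in these same libraries, so the contrast between WT and Postn-DTR is a description of the choice and not a test of it. RNA-seq was performed on omenta 5 days after diphtheria toxin (DT) in 1 WT library and 1 Postn-DTR library. The mice were on a C57BL/6 background, and Postn-DTR mice were heterozygous for a diphtheria toxin receptor placed in the Postn gene, which makes Postn-expressing cells sensitive to the toxin. Both genotypes received DT, and no library without DT was analysed here. The Postn promoter is also used by mesenchymal cells outside the omentum. The paper reported an enlarged cecum in some Postn-DTR mice after DT, and named systemic effects of the ablation on milky spots as a limit. Whether the mice used here were among them is not given. Whether a library came from a single mouse or a pool, and the age of the mice, are also not given in the sources used here.

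The acute-phase response is the change in plasma protein production that follows injury or infection. Interleukin-6, acting through STAT3, and interleukin-1, acting through NF-kappaB and C/EBP factors, induce these genes, and glucocorticoids increase the effect. The liver is the main source, but adipose tissue also makes several of these proteins, including haptoglobin, orosomucoid and lipocalin 2. Fat makes up most of the omentum, and its milky spots hold lymphocytes, macrophages and stromal cells.

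Expression is given as FPKM, fragment counts divided by transcript length and by library depth, so that levels can be compared between genes. With 1 library per genotype there was no spread between replicates, no test was possible and no p-value is given. Changes are log2(FPKM + 1) in Postn-DTR less that in WT. They understate the change of genes with low FPKM, whereas folds are plain ratios of FPKM. A gene was counted as higher or lower from a 2-fold change on the log2(FPKM + 1) scale, among the 13127 genes whose FPKM averaged 1 or more. Reads were estimated from the steps between low FPKM values, which placed the WT library near 23250000 fragments and the Postn-DTR library near 24050000. The 95% intervals of folds come from these approximate reads and cover counting error only, not variation between mice. The targeted gene, Postn, was at 58.3 FPKM in WT against 16.2 in Postn-DTR. The libraries also differed in pancreatic acinar genes, of which 27 of 27 compared were lower in Postn-DTR. Their summed FPKM was 12550 in WT against 21.6 in Postn-DTR, and the part of this difference in any result below was not tested.

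Of the 10 genes 9 reached the FPKM minimum and Hpx did not. At least 2-fold higher in Postn-DTR were 5 of the 10, Hp, Lcn2, Ptx3, Lbp and Lrg1, and 1 was at least 2-fold lower, Orm1. Among all genes compared, 3.88% were higher and 3.12% lower by the same measure. Since the genes were chosen on this contrast, nothing is read from these shares. Of all genes that changed 55.4% were higher, and 28.1% were higher after acinar genes were removed and both libraries scaled to the same total. Before scaling, the FPKM of all genes summed to 542190 in WT against 671882 in Postn-DTR, a larger difference than that of the acinar sums. Scaling to the same total therefore lowers Postn-DTR values against WT, and the 2 steps were not run apart. The median change of the 10 genes was 1.30, or 0.63 with a pseudocount of 5, and the median over all genes compared was 0.02. Together the 10 genes summed to an FPKM of 1651 in WT, or 0.305% of all FPKM, and to 7876 in Postn-DTR, or 1.17%.

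**Figure D1:**
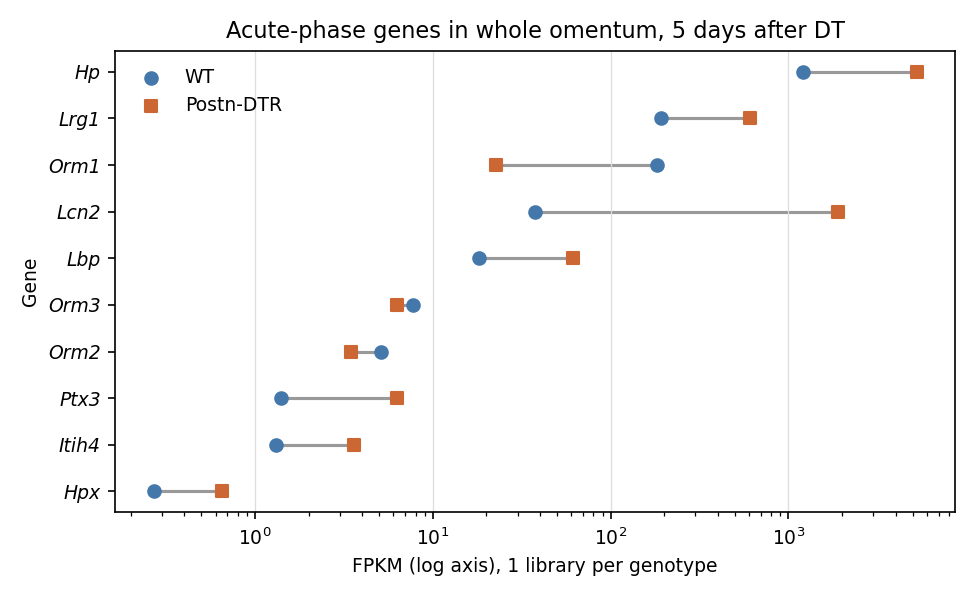
FPKM of the 10 acute-phase genes on a log axis, ordered by their level in WT, with circles for the WT library and squares for the Postn-DTR library; each point is 1 library and there are no error bars. Orm1 moved from 182.2 to 22.6 while Lcn2 moved from 37.7 to 1908, and the 3 orosomucoid genes are the only ones whose square lies to the left of the circle.

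The orosomucoids are small glycoproteins of plasma that bind drugs and lipids and dampen inflammation, and mice carry several adjacent copies. Orm1 (ENSMUSG00000039196), Orm3 (ENSMUSG00000028359) and Orm2 (ENSMUSG00000061540) follow each other on the plus strand of chromosome 4 of GRCm38, at chr4:63344560-63348163, chr4:63356162-63359511 and chr4:63362449-63365878. Each has 1 annotated transcript. The coding sequences of Orm1 and Orm2 were 89.9% identical, with 63 mismatches over 621 bases, those of Orm1 and Orm3 86.4% and those of Orm2 and Orm3 88.3%. The stretch of 60 coding bases in which Orm1 differs most often from both paralogs is shown to make clear where reads can tell them apart. Capitals mark bases that differ from both other genes, and the stretch covers coding bases 138 to 197 of Orm1 and Orm2 and 135 to 194 of Orm3 in GENCODE M21 transcripts.
Orm1: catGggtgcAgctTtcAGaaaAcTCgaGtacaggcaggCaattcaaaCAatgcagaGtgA
Orm2: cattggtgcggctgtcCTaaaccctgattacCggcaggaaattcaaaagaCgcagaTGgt
Orm3: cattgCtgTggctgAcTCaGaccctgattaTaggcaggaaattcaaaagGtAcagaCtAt
Orm1 carried 14 such bases in this stretch, Orm3 11 and Orm2 6. Over the whole transcripts, 86.2% of the 75-base windows of Orm1 occurred in no other gene's transcript, against 86.0% for Orm2 and 99.9% for Orm3. At this length the shared windows of Orm1 were all shared with Orm2, and how reads in them were divided is not given in the sources used here, so the separate values of Orm1 and Orm2 are uncertain. With 50-base windows the unique shares were 79.6%, 77.3% and 96.4%, and with 100-base windows 93.0%, 93.0% and 100%.

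Orm1 had an FPKM of 182.2 in WT against 22.6 in Postn-DTR. It was 8.07-fold lower (95% counting interval 7.18 to 9.12), a change of -2.96, from about 2428 and 314 reads. Of the genes compared, 52 (0.396%) had a more negative change, and most of the acinar genes compared were among them. The 10 genes were picked on this contrast, so nothing is read from this rank or from those of Hp and Lcn2 below. In bulk tissue, fewer cells of a type and less RNA per cell cannot be told apart. Orm2 was at 5.10 FPKM in WT against 3.48 in Postn-DTR, a change of -0.45, and Orm3 was at 7.74 and 6.32, a change of -0.26. Neither reached 2-fold. The counting interval of the WT to Postn-DTR fold ran from 1.01 to 2.19 for Orm2 and from 0.912 to 1.65 for Orm3, which for Orm3 includes no difference. The intervals of Orm1 and Orm2 do not cover how their shared reads were divided, so whether Orm2 differed is not settled. The 3 genes summed to 195.1 FPKM in WT against 32.4 in Postn-DTR, which was 6.03-fold lower and does not depend on how reads were divided among them. Orm1 made up 93.4% of this sum in WT and 69.7% in Postn-DTR. Orm2 and Orm3 together went from 12.8 to 9.80 FPKM, so nearly all of the lost orosomucoid signal was assigned to Orm1.

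**Figure D2:**
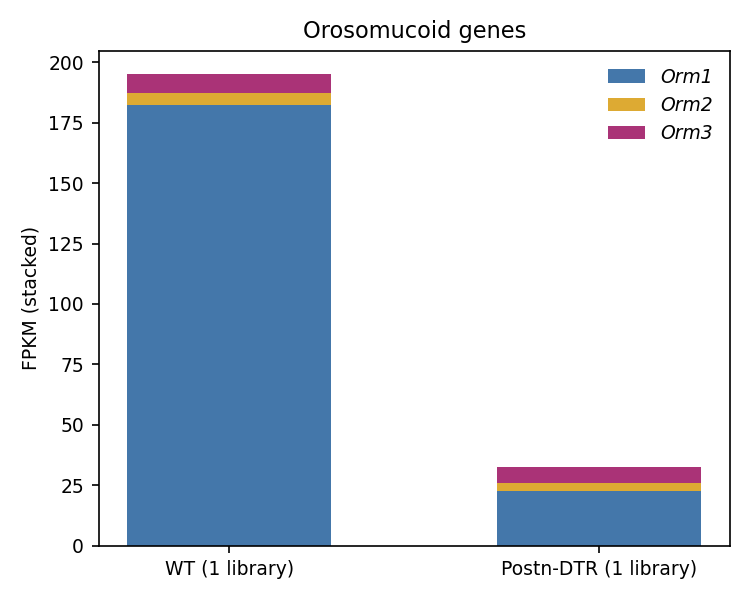
Stacked FPKM of Orm1, Orm2 and Orm3 in the WT and Postn-DTR libraries, 1 library each, on a linear axis from 0. The total went from 195.1 to 32.4, and Orm1, at the bottom of each bar, accounts for nearly all of the difference.

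The genes beside the cluster did not share the size of the Orm1 difference. Col27a1, the nearest protein-coding gene upstream of Orm1, was at 4.67 FPKM in WT against 2.29 in Postn-DTR, a change of -0.78. Akna, the next gene beyond Orm2, was at 24.5 and 21.5, a change of -0.18. Orm1 was also set beside all genes compared by the distance of its 2 log2(FPKM + 1) values. The 3 nearest were Acaca, at 129.1 and 19.6 FPKM, Acss2, at 169.7 and 14.5, and Cox8b, at 113.7 and 31.8. Acaca encodes acetyl-CoA carboxylase and Acss2 an acetyl-CoA synthetase, enzymes that feed fatty acid synthesis, and Cox8b encodes a subunit of cytochrome c oxidase. This likeness rests on 2 libraries. Of 10 adipocyte markers, all compared, 0 were at least 2-fold higher and 1 was lower, Pparg, with a median change of -0.46. Their summed FPKM was 16095 in WT against 15234 in Postn-DTR. The markers went both ways within 2-fold. Adipoq, which encodes adiponectin, was at 955.2 and 635.9, and Cfd, which encodes adipsin, at 7764 and 5976, and Plin1, Lep, Retn and Lipe were also lower. Fabp4, at 4879 and 6519, Pnpla2, at 362.3 and 494.9, and Cidec, at 512.8 and 591.5, were higher. The part of the adipocyte markers in the Orm1 difference was not tested.

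Haptoglobin binds free haemoglobin and hemopexin binds free haem, and both carry them to receptors for clearance. Hp (ENSMUSG00000031722, chr8:109575128-109579172, minus strand) was the most abundant of the 10 genes in both libraries. It was at 1204 FPKM in WT against 5256 in Postn-DTR, 4.36-fold higher (4.31 to 4.42), a change of 2.12. By level it was the 52nd gene of the WT library and the 7th of the Postn-DTR library, and 117 genes (0.891%) had a larger increase. Hp exceeded Orm1 by 6.61-fold in WT and by 233-fold in Postn-DTR. Its neighbours Txnl4b (7.51 and 5.83 FPKM) and Dhodh (7.56 and 5.88) both changed by -0.32. Hpx (ENSMUSG00000030895, chr7:105591613-105600137, minus strand) was barely expressed, at 0.269 FPKM in WT against 0.649 in Postn-DTR. This corresponds to about 8.10 and 20.3 reads, and its fold of 2.42 had a counting interval of 1.02 to 6.31.

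The partners of haptoglobin and hemopexin were compared next. Cd163, the macrophage receptor for haptoglobin bound to haemoglobin, was at 29.2 FPKM in WT against 69.5 in Postn-DTR, a change of 1.22. Lrp1, a receptor for hemopexin bound to haem, was at 87.9 and 186.8, a change of 1.08. Hmox1, the haem oxygenase that breaks haem down, was at 57.1 and 259.1, a change of 2.16. The haemoglobin gene Hba-a1 was at 269.8 and 790.7, a change of 1.55, but it shares reads with a near-identical copy and is uncertain. Cd163, Lrp1 and Hmox1 were thus at least 2-fold higher in the library in which Hp was higher. Of 8 macrophage markers, 4 were higher and 0 lower, with a median change of 0.89, and the 4 include Cd163. Their summed FPKM was 2928 in WT against 4725 in Postn-DTR. Lyz2, which stayed within 2-fold, made up most of this sum, at 2459 and 3563. The part of macrophages and of blood in the Hp difference was not tested.

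Lipocalin 2 binds bacterial siderophores and so withholds iron. It is made by adipocytes, epithelia and macrophages and is stored in the specific granules of neutrophils. Lcn2 (ENSMUSG00000026822, chr2:32384633-32388252, minus strand) was at 37.7 FPKM in WT against 1908 in Postn-DTR. It was 50.6-fold higher (46.7 to 54.9), a change of 5.62, and 4 genes of those compared had a larger increase. By level Lcn2 was the 2336th gene of the WT library and the 42nd of the Postn-DTR library. Its share of the summed FPKM of the 10 genes went from 2.28% to 24.2%. In WT Orm1 exceeded Lcn2 by 4.83-fold, and in Postn-DTR Lcn2 exceeded Orm1 by 84.5-fold. Its neighbours 1110008P14Rik (53.2 and 90.2 FPKM) and Ptges2 (12.7 and 13.1) stayed within 2-fold. Slc22a17, which encodes a receptor for lipocalin 2, was at 14.3 and 13.7, and Lrp2, another, at 4.05 and 5.21. Mmp9, a protease that lipocalin 2 binds, was at 27.2 and 22.9. None of these 3 partners reached 2-fold. The nearest genes to Lcn2 over the 2 libraries were Mt2 (77.4 and 3543), a metallothionein, Marco (75.1 and 882.1), a scavenger receptor of macrophages, and Serpina3n (116.0 and 1248), a protease inhibitor that is itself an acute-phase gene.

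Because Lcn2 is a granule gene, neutrophil genes were set beside it. Of 12 markers 11 were analysed here, and they split, with 4 at least 2-fold higher and 5 lower. The lower genes encode granule proteins that are made in the bone marrow by immature neutrophils. Ltf, which encodes lactoferrin and shares the specific granules with lipocalin 2, was at 12.4 FPKM in WT against 1.98 in Postn-DTR. Camp, the cathelicidin of the same granules, was at 33.1 and 8.98, and Ngp at 48.0 and 13.2. Mpo (3.84 and 0.726) and Elane (5.86 and 1.85), from the azurophil granules, were lower as well. The higher genes were Retnlg (12.8 and 72.6), Cxcr2 (0.514 and 4.03), Csf3r (6.87 and 15.9) and Mmp8 (1.32 and 6.82). Cxcr2 and Csf3r encode receptors of circulating neutrophils. S100a8 (169.7 and 338.6) and S100a9 (156.6 and 249.3) stayed within 2-fold. Lcn2 thus differed in direction from Ltf, Camp and Ngp, and had the same direction as Mmp8, Retnlg, Cxcr2 and Csf3r. The summed FPKM of the markers was 450.9 in WT against 714.0 in Postn-DTR. S100a8 and S100a9, which stayed within 2-fold, made up most of this sum in both libraries and nearly all of its rise. The part of neutrophils in the Lcn2 difference was not tested.

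**Figure D3:**
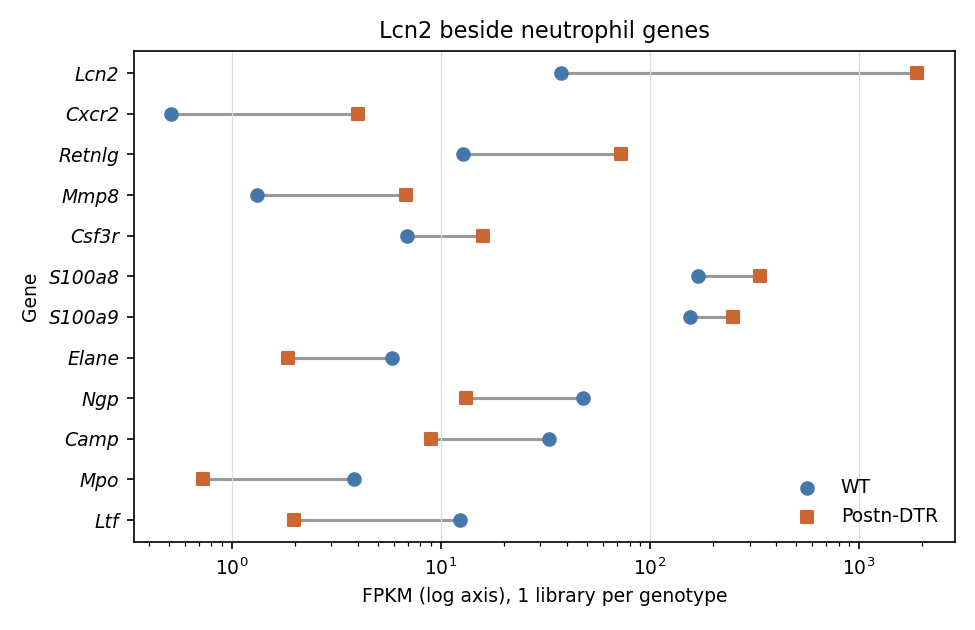
FPKM on a log axis of Lcn2 and 11 neutrophil genes, ordered from the largest to the smallest Postn-DTR to WT ratio, with circles for WT and squares for Postn-DTR, 1 library each. Lcn2 has the longest line, from 37.7 to 1908, and Elane, Ngp, Camp, Mpo and Ltf at the bottom run the opposite way.

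Lipopolysaccharide-binding protein hands bacterial lipopolysaccharide to CD14, which passes it to TLR4 and its partner MD-2. Lbp (ENSMUSG00000016024, chr2:158306493-158332852, plus strand) was at 18.3 FPKM in WT against 61.3 in Postn-DTR, 3.36-fold higher (3.13 to 3.61), a change of 1.70. Cd14 was at 33.6 and 230.1, a change of 2.74. Tlr4 was at 5.75 and 8.37, and Ly96, which encodes MD-2, at 19.1 and 26.3, and neither reached 2-fold. The related genes Bpi, listed at 0 in both libraries, and Pltp, at 298.4 and 459.7, were not counted as changed.

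Leucine-rich alpha-2-glycoprotein 1 is a secreted protein that modulates TGF-beta signalling through endoglin on endothelium. Lrg1 (ENSMUSG00000037095, chr17:56119678-56122001, minus strand) was at 192.9 FPKM in WT, close to Orm1, and at 608.1 in Postn-DTR. It was 3.15-fold higher (3.06 to 3.25), a change of 1.65. Its partners Eng (75.2 and 76.2), Acvrl1 (31.0 and 23.6), Tgfbr1 (7.62 and 9.71) and Tgfbr2 (73.9 and 81.9) all stayed within 2-fold. Of 6 endothelial markers 0 were higher and 0 lower, with a median change of -0.06. Unlike the neighbours of Hp and Lcn2, a gene beside Lrg1 was also at least 2-fold higher. Sema6b, 1084 bp away, was at 7.58 and 19.8 FPKM, a change of 1.28, and Plin5 on the other side was at 3.54 and 7.93, a change of 0.98.

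Pentraxin 3 is a soluble pattern recognition molecule made locally by stromal and myeloid cells rather than by the liver. Among sorted omental stromal cells, the paper reported Ptx3 as selective to the Aldh1a2-expressing population that DT ablates in Postn-DTR mice. Ptx3 was nevertheless higher in the Postn-DTR library, and which cells its reads came from was not tested. Ptx3 (ENSMUSG00000027832, chr3:66219910-66225805, plus strand) was at 1.40 FPKM in WT against 6.30 in Postn-DTR, 4.51-fold higher (3.37 to 6.16), a change of 1.61 from about 55.1 and 258 reads. It lies within Veph1 on the opposite strand, which was at 0.0413 and 0.00666 FPKM. Tnfaip6, whose product works with pentraxin 3 in assembling hyaluronan matrix, was at 1.41 and 2.82, a change of 0.66. The pentraxins of the liver, Crp and Apcs, were listed at 0 in both libraries. Itih4, a relative of the inter-alpha-trypsin inhibitor heavy chains, is an acute-phase protein of uncertain function. Itih4 (ENSMUSG00000021922, chr14:30886476-30902353, plus strand) was at 1.32 FPKM in WT against 3.62 in Postn-DTR. Its ratio was 2.74-fold (2.18 to 3.47), but its change of 0.99 fell just short of 2-fold on the log2(FPKM + 1) scale. Within its family Itih5 went the other way, at 37.2 and 10.5, a change of -1.73. Itih3, next to Itih4, was at 1.001 and 1.84, Itih2 was at 0.470 and 0.554, and Itih1 was listed at 0.

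**Figure D4:**
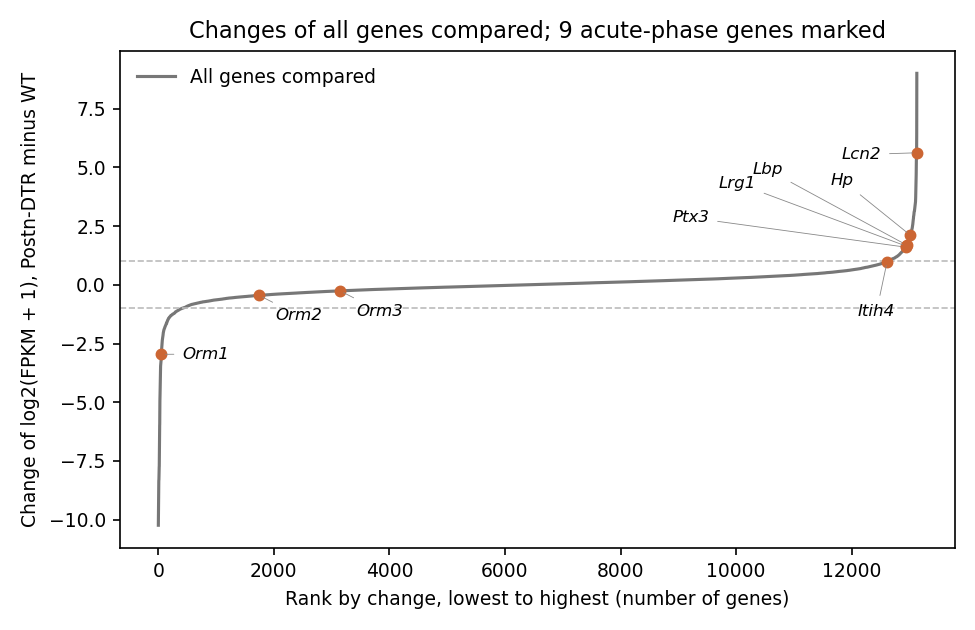
Difference in log2(FPKM + 1) between Postn-DTR and WT of the 13127 genes compared, ordered from lowest to highest (grey line), with dots for the 9 acute-phase genes that reached the FPKM minimum; dashed lines mark 2-fold in either direction. Orm1 sits at the lower end with -2.96 and Lcn2 at the upper end with 5.62, while Orm2 and Orm3 lie on the flat part of the line.

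The rest of the acute-phase pathway was taken from lists chosen with earlier results of these data known, and is described by counts. Of 27 other positive acute-phase genes 19 were compared, and 14 of them were at least 2-fold higher and 0 lower, with a median change of 2.38. The 14 include the serum amyloid A genes Saa1, Saa2 and Saa3. Coagulation factor F5 was at 2.56 FPKM in WT against 19.0 in Postn-DTR, and the complement genes C4b (271.6 and 592.1) and Cfb (191.9 and 439.6) were higher too. Hamp, the iron hormone hepcidin, and Fgg, a fibrinogen chain, were both listed at 0 in WT, and reached 3.45 and 4.21 FPKM after ablation. Hamp2, a close paralog of Hamp, was at 4.75 and 3.88, a change of -0.24, so the separate values of Hamp and Hamp2 are uncertain. The highly expressed C3 (2404 and 2693) and the ferroxidase Cp (81.9 and 104.6) stayed within 2-fold. Of 11 negative acute-phase genes, which the liver lowers in this response, 3 were compared and 1 was lower, Rbp4, the plasma retinol carrier, at 155.4 and 47.8. The iron carrier Trf was at 1847 and 1325, a change of -0.48.

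Among 16 inducing cytokines and receptors 13 were compared, of which 3 were higher and 0 lower. These were Il6 (0.436 and 5.58 FPKM), Il1b (1.87 and 8.19) and Il1a (0.412 and 3.21). The receptor genes Il6ra (15.7 and 27.8), Il6st (73.8 and 96.1) and Il1r1 (34.01 and 24.1) stayed within 2-fold, as did Tnf (3.76 and 2.26). Of 15 transcription factors and feedback genes 13 were compared, with 5 higher and 0 lower. Socs3, the feedback inhibitor induced by STAT3, was at 17.8 and 143.4. Cebpd was at 15.9 and 68.2 and Cebpb at 39.0 and 110.3, while Cebpa, the family member of resting adipocytes and liver, was at 134.4 and 105.7. The NF-kappaB feedback genes Nfkbia (87.6 and 240.0) and Nfkbiz (10.6 and 32.0) were also higher. Of 10 glucocorticoid response genes 9 were higher and 0 lower, with a median change of 1.72, and the 9 include Mt1 and Mt2, which also stand among the positive acute-phase genes. Tsc22d3 was at 90.8 and 241.4 and Fkbp5 at 43.8 and 148.0. The receptor gene Nr3c1 was at 22.1 and 14.1, a change of -0.61. Of 17 receptors, ligands and partners of the 10 genes 5 were higher and 1 lower, the lower being Ccr2 (39.6 and 16.4). Of 17 genes of their families 7 were compared, with 0 higher and 2 lower, Itih5 and Rbp4.

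**Figure D5:**
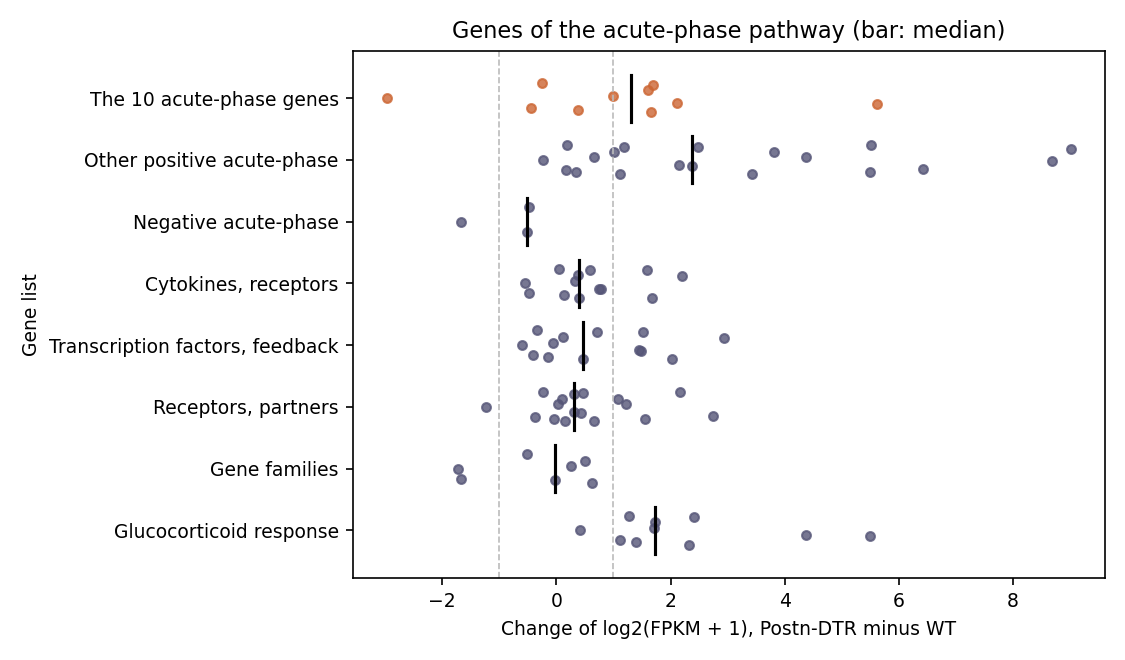
Difference in log2(FPKM + 1) between Postn-DTR and WT of single genes (dots) in the 10 acute-phase genes and in 7 related lists, with the black bar at each median and dashed lines at 2-fold; list genes under the FPKM minimum are not drawn. Other positive acute-phase genes (median 2.38) and glucocorticoid response genes (median 1.72) lie mostly to the right, while Orm1 is the lowest dot of all, at -2.96.

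Promoter windows of 300 bases that end 50 bases after the RefSeq start site, on GRCm38.p6, were read for 7 of the 10 genes. Orm1, Hp and Lbp had no entry. The windows of Orm2 and Orm3, the paralogs that stayed within 2-fold, are shown with those of Lcn2 and Ptx3, which were higher, because Cebpb and Cebpd were higher and a C/EBP motif occurred in all 4. Capitals mark matches to any motif searched on both strands, which were TTNNGNAA for C/EBP, TTCNNNGAA for STAT, GGGA and CC with any 4 bases between them for NF-kappaB, ACANNNTGT for the glucocorticoid receptor and TATAAA for the TATA box. All are printed in the direction of transcription, with Orm2 at chr4:63362199-63362498 and Orm3 at chr4:63355908-63356207 on the plus strand, Lcn2 at chr2:32387690-32387989 on the minus strand and Ptx3 at chr3:66219637-66219936 on the plus strand.
Orm2: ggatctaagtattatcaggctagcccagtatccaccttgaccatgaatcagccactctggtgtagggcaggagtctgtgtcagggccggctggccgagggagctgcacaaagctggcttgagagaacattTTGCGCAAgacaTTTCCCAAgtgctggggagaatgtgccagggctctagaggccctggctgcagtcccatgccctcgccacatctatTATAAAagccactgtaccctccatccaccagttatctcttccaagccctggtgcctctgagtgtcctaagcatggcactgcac
Orm3: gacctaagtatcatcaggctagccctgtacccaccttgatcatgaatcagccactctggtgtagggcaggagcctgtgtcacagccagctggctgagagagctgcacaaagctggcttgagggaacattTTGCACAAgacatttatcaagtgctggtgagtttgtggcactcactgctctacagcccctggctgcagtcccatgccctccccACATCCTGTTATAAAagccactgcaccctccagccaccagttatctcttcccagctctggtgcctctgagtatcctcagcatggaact
Lcn2: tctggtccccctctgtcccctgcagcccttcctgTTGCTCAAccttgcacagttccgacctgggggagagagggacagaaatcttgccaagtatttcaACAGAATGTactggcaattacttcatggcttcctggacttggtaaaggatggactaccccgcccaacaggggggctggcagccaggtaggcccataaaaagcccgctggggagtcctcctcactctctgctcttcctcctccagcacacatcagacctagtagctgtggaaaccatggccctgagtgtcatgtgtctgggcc
Ptx3: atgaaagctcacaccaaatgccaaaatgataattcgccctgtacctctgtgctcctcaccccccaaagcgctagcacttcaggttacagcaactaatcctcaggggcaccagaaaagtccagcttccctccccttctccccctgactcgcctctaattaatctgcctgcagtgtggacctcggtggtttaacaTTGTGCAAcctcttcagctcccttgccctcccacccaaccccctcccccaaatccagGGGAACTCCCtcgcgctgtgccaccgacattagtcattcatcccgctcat
A C/EBP match was in 5 of the 7 windows (71.4%), those of Orm2, Orm3, Hpx, Lcn2 and Ptx3, against 40.7% of 32851 windows of all promoters. The windows of the paralogs Orm2 and Orm3 are alike in sequence and are not separate cases, so nothing is read from this share. Orm2 carried matches from -120 to -113 and from -108 to -101 relative to the start site, and Orm3 carried a single match from -121 to -114, shifted by 1 base from the first of those in Orm2. In Lcn2 the match lay from -216 to -209 and in Ptx3 from -57 to -50. A TATA box match was in 4 of 7 windows (13.6% of all), and in Orm2 and Orm3 it lay from -33 to -28 and from -29 to -24. In Itih4 it lay across the start site, from -3 to 3 on the opposite strand, and in Lrg1 after it, from 12 to 17. Nothing is read from this share either. The glucocorticoid receptor motif was in 2 windows, Orm3 and Lcn2 (6.85% of all), where in Orm3 it ran directly into the TATA box. NF-kappaB was matched in Ptx3 alone (20.7% of all) and STAT in Itih4 alone (8.30% of all). These are matches of letters in a short window and not sites of binding. The C/EBP letters were in the windows of Lcn2 and Ptx3, which were higher, of Orm2 and Orm3, which stayed within 2-fold, and of Hpx, under the FPKM minimum. They were absent from the windows of Lrg1, which was higher, and Itih4. Orm1, Hp and Lbp, all past 2-fold, had no window, and the part of C/EBP factors in the results was not tested.

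Markers of the cell types that make these proteins were compared across the libraries. Hepatocyte genes were near 0. Of 12 such genes 3 were compared, Fgb and Cyp3a11 were listed at 0 in both libraries, and Alb was at 2.17 FPKM in WT against 1.22 in Postn-DTR. The exceptions were Cyp2e1 (681.6 and 1205) and Tat (0.454 and 6.03). The labelled tissue, omentum, carried its adipocyte and mesothelial genes in both libraries. Of 8 mesothelial markers 0 were higher and 1 was lower, Lrrn4 (62.7 and 29.2), and their summed FPKM was 529.5 in WT against 582.1 in Postn-DTR. Of 8 fibroblast markers 0 were higher and 2 were lower, Dpt and Ccl19, and the summed FPKM was 3123 and 3029. Dcn made up most of the fibroblast sum, at 1875 and 2152, while Dpt was at 236.9 and 67.3 and Ccl19 at 61.1 and 17.8. By quantitative PCR on several mice per genotype, the paper reported comparable Ccl19 in WT and Postn-DTR omenta. The lower Ccl19 here rests on 1 library per genotype. The part of mesothelial cells and fibroblasts in the results was not tested.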

How the data were processed

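Whole omentum from WT and Postn-DTR mice was profiled by RNA-seq 5 days after DT, with 1 library per genotype. Per the labels, a miRNeasy kit (Qiagen) was used for RNA and a strand-specific TruSeq mRNA kit (Illumina) for libraries. The authors deposited FPKM per gene symbol, and the submitters' processing notes name TopHat2 2.1.1, Bowtie2 2.2.8, SAMtools 0.1.18, Cuffdiff 2.2.1 and mm10. Options, annotation and strand setting are not given in the sources used here.

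Groups came from the genotype labels. Changes were computed on the log2(FPKM + 1) scale, Postn-DTR less WT, for genes averaging an FPKM of 1 or more. No test was possible. Depth was estimated by finding the fragment number and length correction at which FPKM of single-transcript genes with FPKM under 0.3 gave whole reads. In WT 78.5% of 488 genes and in Postn-DTR 78.8% of 438 came within 0.1 of a whole read. In a 2 kb transcript 1 read was worth 0.0239 FPKM in WT against 0.0230 in Postn-DTR. These numbers fitted the depth and do not check it. Intervals are exact conditional binomial (Clopper-Pearson) at 95%. Positions and transcripts are from GENCODE M21 (GRCm38) and promoters from RefSeq (GRCm38.p6). The depth and change steps were tested on simulated data. Python 3.11.15, numpy 2.4.6, pandas 2.3.3 and scipy 1.17.1 were used.

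The 10 genes, the gene lists and the motifs were chosen with earlier results of these data known. Genes were named if they were among the 10, on a list, the nearest protein-coding neighbours, or the 3 genes nearest to Orm1 or Lcn2 in log2(FPKM + 1). The targeted gene Postn and the gene overlapping Ptx3 were added. In all, 10 alternatives were tried.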

Additional observations from a re-analysis of the deposited data

How the results depend on the processing

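No paired analysis was possible because there was 1 library per genotype, and leaving out a library left no comparison. The count of 5 higher genes among the 10 was 6, with Itih4 added, at a pseudocount of 0.1, at equal Gapdh FPKM and at 1.5-fold. It was 4, without Ptx3, at a pseudocount of 5 and when genes had to average 10 FPKM, a minimum that keeps 5 of the 10 genes. It was 5 in the other 5 alternatives, and Orm1 was the 1 lower gene in all 10. No gene changed direction. The change of Orm1 ranged from -3.29 to -2.76, that of Lcn2 from 5.29 to 5.66, that of Hp from 1.78 to 2.14 and that of Ptx3 from 0.82 to 2.09. Orm2 ranged from -0.72 to -0.25 and Orm3 from -0.56 to -0.17, both lowest with acinar genes removed and equal totals. The median change of the 10 genes, 1.30, was 0.63 at a pseudocount of 5, and over the 5 genes that average 10 FPKM it was 1.70. Hpx ranged from 0.10 to 1.02 and Itih4 from 0.45 to 1.39.

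Over all genes, the 509 higher genes became 287 at a pseudocount of 5, 303 at a minimum average of 10 FPKM, 307 with acinar genes removed and equal totals, 1294 at 1.5-fold and 199 at 3-fold. The 410 lower genes became 643 and 168 at pseudocounts of 0.1 and 5, 173 at that minimum average, 785 with acinar genes removed and equal totals, 1160 with a 1.5-fold threshold and 153 with 3-fold. Removing acinar genes and making totals equal, applied together, shifted the median of all genes by -0.30 and moved the share of higher among changed genes from 55.4% to 28.1%. The 2 steps were not run apart, and the totals, 542190 in WT and 671882 in Postn-DTR, differed by more than the acinar sums. Depth limits Hpx, which rests on about 8.10 and 20.3 reads.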
